A study of Homo sapiens with 12 samples.

Results

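The DNA replication machinery was followed as 54 genes, listed by name and role among the 19973 genes of the expression table. The list uses no cut-off on a measured value, but it was drawn up with earlier results of these data known. They comprised 9 genes of origin recognition and licensing, 11 of the CMG helicase, 4 of origin firing, 4 of fork protection, 9 of the DNA polymerases and primase, 6 of the sliding clamp and its loader, 3 of replication protein A (RPA), 3 of flap removal and ligation and 5 of nucleotide supply. RNA was sequenced from H460 and A549, 2 established human non-small cell lung cancer (NSCLC) lines whose genotype is labelled WT. The paper states, however, that both lines have homozygous mutations that inactivate KEAP1. Cells were non-treated (control) or received isovalerylspiramycin I (ISP-I), a macrolide purified from the antibiotic carrimycin, at 10 µM for 48 h. Each of the 4 groups held 3 libraries, 12 in all. Whether the non-treated cells received the solvent of ISP-I is not stated. The methods speak of independent experiments for the study in general and of replicates for the RNA, without saying that the libraries of a group came from separate cultures, so the p values below measure the spread between libraries, which may be technical. Levels are in FPKM, which divides the reads of a gene by its listed length and by the library total.

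Before a cell divides it copies its genome once. In G1 phase the origin recognition complex (ORC), CDC6 and CDT1 load the MCM2-7 ring onto DNA, which is called licensing, and geminin (GMNN) holds CDT1 in check afterwards. In S phase the kinase CDC7 with its activator DBF4, together with TICRR and MCM10, turns the ring into the active CMG helicase by adding CDC45 and the GINS complex, and DNA polymerases, the clamp PCNA, RPA, flap nuclease and ligase then copy the opened strands from nucleotides made by enzymes such as ribonucleotide reductase. Many of these genes are known targets of E2F transcription factors, and their mRNAs are most abundant in proliferating cells around the start of S phase.

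Depth was 14225849 to 17874422 reads on genes per library, and pairs of libraries within a group had a chi-square per degree of freedom of 2.95 to 92 over genes, where 1 is sampling noise alone, so no library was a copy of another. The epithelial markers KRT8, KRT18 and KRT19 were abundant in all 12 libraries, whereas in H460 controls CDH1 was at 0 and EPCAM at 0 to 0.114 FPKM. Leukocyte, endothelial and fibroblast markers reached at most 0.368 FPKM in any library. ISP-I library 3 of H460 (54.4 and 92 against its group) and control library 3 of A549 (26.7 and 30.8, where the other pair gave 3.3) stood furthest from their groups. Over all genes tested, the ISP-I fold change had a log2 median of -0.15 in H460 and 0.02 in A549. Median-of-ratios scaling of FPKM moved the first by 0.16, so an H460 change near that size depends on the scaling. Among all genes called in H460, 40.8% were higher as deposited and 56.5% with that scaling, and for the difference between the lines the values were 37.0% and 61.1%.

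The promoters of replication genes carry short motifs known to bind E2F and NF-Y factors, and 5 are printed beside the changes described below, chosen after their values were seen. PCNA fell most in H460 on the log2(FPKM + 1) scale, MCM6 stands for the helicase ring, TIMELESS fell most in A549, GINS3 rose in H460, and CDC6 fell in A549 while its H460 groups overlapped. Sequences are from RefSeq on GRCh38.p14, 170 bases before the annotated start and 30 from it on, 5′ to 3′ on the gene's strand. Capitals mark E2F sites (TTTGGCGC, TTTCCCGC, TTTCGCGC or TTTGCCGC) and CCAAT boxes (CCAAT), each on either strand. The windows are chr20:5126593-5126792 on the minus strand for PCNA, chr2:135876414-135876613 on the minus strand for MCM6, chr12:56449397-56449596 on the minus strand for TIMELESS, chr16:58392301-58392500 on the plus strand for GINS3 and chr17:40287709-40287908 on the plus strand for CDC6.
PCNA: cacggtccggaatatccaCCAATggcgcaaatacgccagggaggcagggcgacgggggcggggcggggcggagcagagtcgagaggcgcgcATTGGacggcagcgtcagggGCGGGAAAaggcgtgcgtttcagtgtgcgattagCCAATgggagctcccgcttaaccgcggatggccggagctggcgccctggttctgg
MCM6: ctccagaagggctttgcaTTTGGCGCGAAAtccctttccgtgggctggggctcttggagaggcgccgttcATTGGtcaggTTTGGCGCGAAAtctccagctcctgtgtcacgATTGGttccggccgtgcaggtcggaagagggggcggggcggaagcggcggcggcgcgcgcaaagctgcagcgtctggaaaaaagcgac
TIMELESS: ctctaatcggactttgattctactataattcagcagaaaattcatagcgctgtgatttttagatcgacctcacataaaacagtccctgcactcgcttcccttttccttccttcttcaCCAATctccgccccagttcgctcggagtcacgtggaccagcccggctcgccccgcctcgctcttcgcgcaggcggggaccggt
GINS3: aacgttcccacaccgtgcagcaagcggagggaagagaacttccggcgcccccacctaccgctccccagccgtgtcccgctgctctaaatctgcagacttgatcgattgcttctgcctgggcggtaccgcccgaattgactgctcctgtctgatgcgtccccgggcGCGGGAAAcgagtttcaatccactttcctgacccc
CDC6: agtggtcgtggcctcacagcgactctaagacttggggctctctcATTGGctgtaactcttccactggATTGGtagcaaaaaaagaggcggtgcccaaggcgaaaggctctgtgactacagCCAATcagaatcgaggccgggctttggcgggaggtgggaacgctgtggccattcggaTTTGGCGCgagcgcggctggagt

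PCNA held an E2F site that begins 59 bases before its start and 3 CCAAT boxes. MCM6 held 4 overlapping E2F matches in 2 places, and 2 CCAAT boxes, one of them just before the second place. GINS3 held an E2F site that begins 5 bases before its start and runs across it, and no CCAAT box. CDC6 had its E2F site from base 7 on after the start, and TIMELESS had a CCAAT box only. Over the whole 300-base windows, from 250 bases before the start to 50 after it, RefSeq promoters were at hand for 48 of the 54 genes. An E2F site stood in 19 of them (39.6%), against 3.33% of the 27305 promoters of all genes and 5.33% of the 10734 promoters of genes tested in H460. The CMG helicase held it in 7 of 8 promoters (87.5%), CDC45 being the exception. A CCAAT box stood in 27 (56.2%), against 35.7% of all promoters and 36.4% of those of tested genes. The CHR element (TTTGAA on either strand) stood in 2 (4.17%), against 15.4% and 9.8%. Of the 19 members with an E2F site, 16 fell in H460 with a median log2 fold change of -1.23, and 15 fell in A549 with a median of -0.81. Of the 29 without one, 23 fell in H460 (median -1.05) and 20 in A549 (median -0.56), so members moved down with and without these letters. Among all genes tested, 41.5% fell in H460 and 27% in A549. No test was made of these shares, and a match is a description of the sequence only.

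After ISP-I, most of the replication machinery fell in each line, with the lower median in H460. In H460, 45 of the 54 genes fell, where 41.5% of all genes tested fell (limma on log2(FPKM + 1), Benjamini-Hochberg adjusted p under 0.05). Only GINS3 and ORC4 rose, 2 of 54 against 27.6% of all genes, and 7 did not pass. In A549, 41 fell (27% of all genes tested), ORC4 and ORC6 rose (2 of 54 against 30.5%), and 11 did not pass. The median log2 fold change was -1.11 in H460 and -0.69 in A549. A fall of more than 2-fold on the log2(FPKM + 1) scale, which understates low genes, was found for 30 members in H460 (15.2% of all genes) and 12 in A549 (3.51%). A rise of that size was found for 1 member in H460 (10.5%) and for 0 in A549 (4.2%), where 2 rose at any size. With median-of-ratios scaling 37 of the 45 still passed in H460, and ORC6 joined the genes that rose. CDC45, TIPIN, POLA1, RFC3, RPA2, FEN1, RNASEH2A and RRM1 were lost. There 21 members fell by more than 2-fold, and the H460 median was -0.90 against 0.01 for all genes. In A549 the same 41 passed. Shares of all genes passing under that scaling are not given. Without A549 control library 3, 44 fell there, and without H460 ISP-I library 3 the H460 count was 45. In a bulk library, fewer cells in S phase and less mRNA per cell cannot be told apart.

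**Figure D1:**
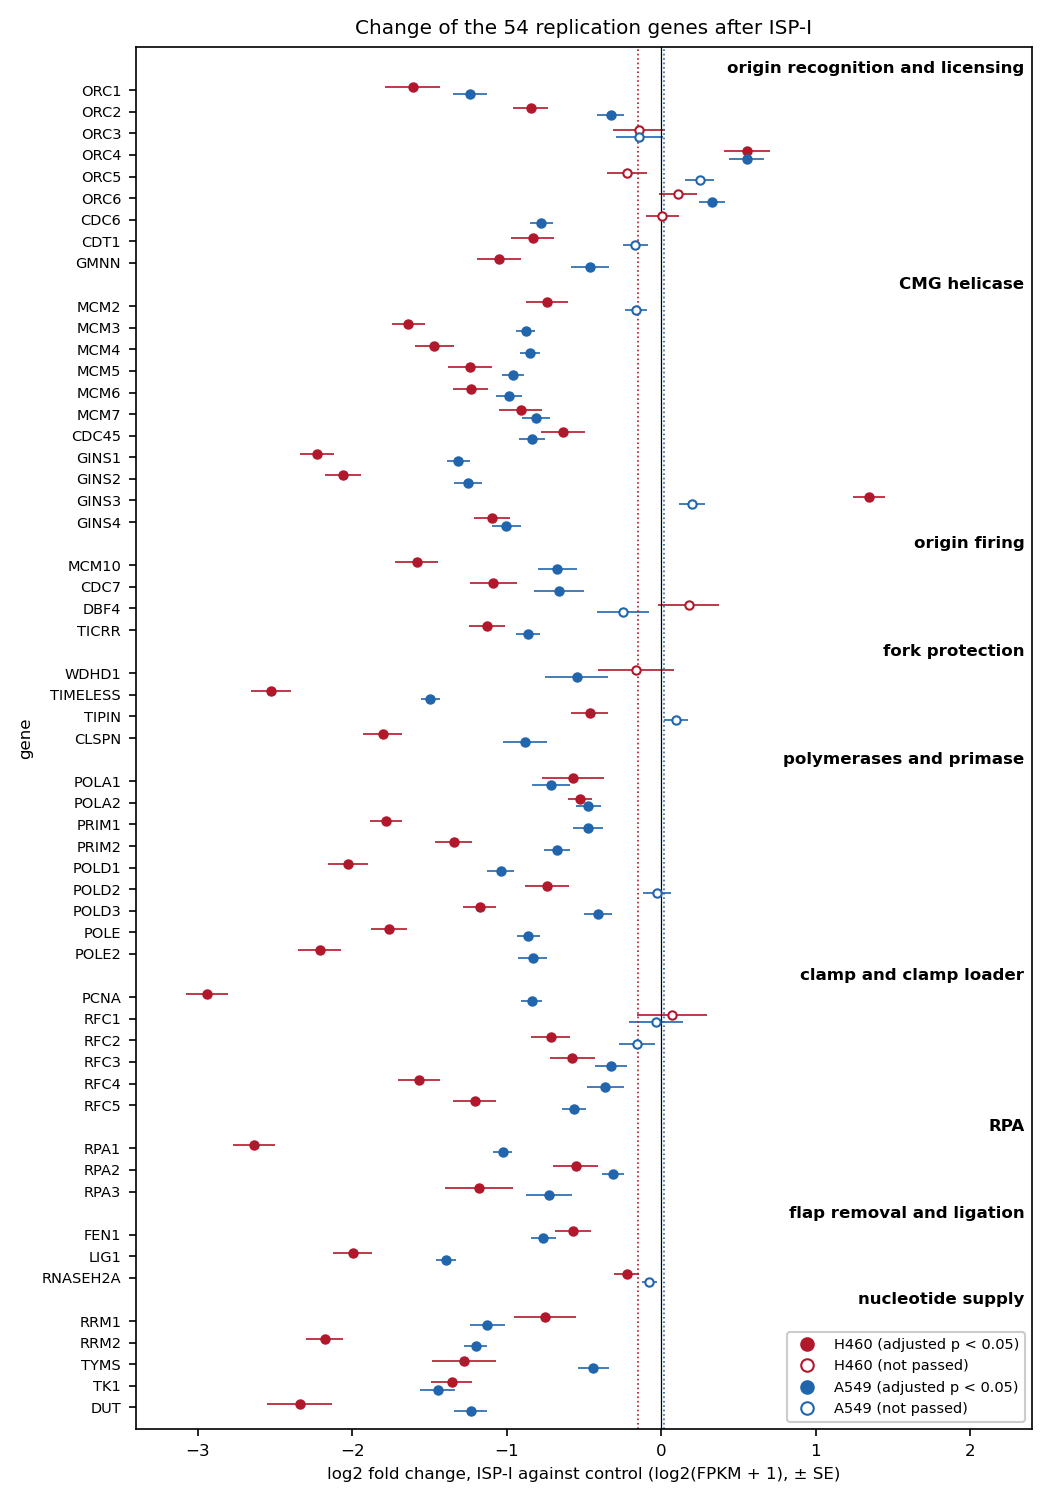
Log2 fold change (ISP-I against control, on log2(FPKM + 1), bars are SE) of each of the 54 replication genes in H460 (red) and A549 (blue), by role. Filled circles passed an adjusted p of 0.05 and dotted lines mark the medians of all genes, -0.15 in H460 and 0.02 in A549. Of the H460 circles, 45 are filled and to the left of 0, and GINS3 stands alone beyond 1 on the right.

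The 3 control and 3 ISP-I libraries did not overlap for 46 of the 54 genes in each line. In H460, 44 were lower throughout (43.1% of all genes) and 2 higher throughout (29.6%). In A549, 43 were lower throughout (30.7%) and 3 higher throughout (34.8%), the 3 being ORC4, ORC6 and GINS3. Levels spanned a wide range. In H460 controls the members' mean FPKM ran from 0.219 for RNASEH2A to 212 for PCNA, with a median of 18.3, which was 7.76 after ISP-I. In A549 the median was 18.9 in controls and 10.4 after ISP-I.

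Of the 9 genes of origin recognition and licensing, 4 fell and 1 rose in H460, where 41.5% of all genes fell and 27.6% rose, so the share that fell was near that of all genes. In A549, 4 fell and 2 rose, where 27% of all genes fell and 30.5% rose. The 9 fold changes had a log2 median of -0.22 in H460, turning to 0.03 with median-of-ratios scaling, and -0.17 in A549. ORC1 (chromosome 1, 52372829 to 52404423), the largest ORC subunit, had 28.8, 30.5 and 26.8 FPKM in the H460 controls and 10.3, 10.2 and 6.28 after ISP-I (log2 fold change -1.61, SE 0.18, limma adjusted p 6.9e-05). A549 libraries gave 11.2, 14.3 and 14.2 in controls and 5.45, 5.13 and 4.47 after ISP-I (log2 fold change -1.24, SE 0.11, limma adjusted p 4.34e-05). Its groups did not overlap in either line. ORC2 also fell in the 2 lines (-0.84 and -0.33), whereas ORC3 and ORC5 passed in neither. Without A549 control library 3, ORC3 fell in A549 (-0.33, limma adjusted p 0.0017). Without A549 control library 2, ORC5 rose in A549 (0.33, limma adjusted p 0.0179).

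ORC4, an ATPase subunit of ORC, rose in each line, and ORC6, its smallest subunit, rose in A549. ORC4 (chromosome 2, 147930396 to 148021604) had 3.61, 2.58 and 3.03 FPKM in H460 controls and 4.59, 6.03 and 4.35 after ISP-I (log2 fold change 0.55, SE 0.15, limma adjusted p 0.0099). In A549 the FPKM was 3.15, 3.37 and 2.34 and then 4.42, 4.85 and 5.02 (log2 fold change 0.55, SE 0.11, limma adjusted p 0.00346). Every treated library was above every control library in each line. ORC6 (chromosome 16, 46689643 to 46698394) had 19.2, 20.2 and 17.1 in H460 controls and 19.7, 18.7 and 22.6 after ISP-I, with overlapping groups (log2 fold change 0.11, SE 0.12, limma adjusted p 0.454, and 0.38 with an adjusted p of 0.0273 under median-of-ratios scaling). In A549 its 14.1, 11.8 and 13.3 FPKM became 17.1, 17.2 and 15.6 without overlap (log2 fold change 0.33, SE 0.08, limma adjusted p 0.00961).

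Of the loaders, CDC6 fell in A549 and CDT1 fell in H460. CDC6 (chromosome 17, 40287879 to 40304657), the ATPase that joins ORC at origins, had 28.5, 27.3 and 27.5 FPKM in H460 controls and 29.7, 27.96 and 26.2 after ISP-I, which overlapped (log2 fold change 0.01, SE 0.11, limma adjusted p 0.952, and 0.29 with an adjusted p of 0.0492 in limma voom on recovered reads with median-of-ratios factors). The values in A549 were 28.4, 27.3 and 24.3 and then 15.5, 15.4 and 14.6 (log2 fold change -0.78, SE 0.08, limma adjusted p 6.73e-05), with all treated libraries below the controls. CDT1 (chromosome 16, 88803789 to 88809258), which brings MCM2-7 to ORC, had 35.5, 41.4 and 46.2 in H460 controls and 25.5, 20.4 and 21.9 after ISP-I (log2 fold change -0.83, SE 0.14, limma adjusted p 0.000808). In A549 it had 24.02, 25.6 and 28.8 and 22.3, 23.1 and 23.9, a small difference that did not pass (log2 fold change -0.17, SE 0.08, limma adjusted p 0.105). GMNN fell in H460 (-1.05) and in A549 (-0.46, adjusted p 0.0122). Leaving out ISP-I library 1 (adjusted p 0.055) or ISP-I library 3 (0.0552) ended the call for A549.

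Of the 11 CMG helicase genes, 10 fell and 1 rose in H460 (median -1.23), and 9 fell in A549 (median -0.88) with 2 not passing. For this role and those below, the shares of all genes tested were 41.5% lower and 27.6% higher in H460. In A549 they were 27% lower and 30.5% higher. Within the MCM2-7 ring, MCM3 (-1.64 in H460 and -0.88 in A549), MCM4 (-1.47 and -0.85), MCM5 (-1.24 and -0.96), MCM6 (-1.23 and -0.99) and MCM7 (-0.91 and -0.81) fell in each line. MCM2 (chromosome 3, 127598410 to 127622436) moved least of the ring. It had 56.4, 66.96 and 69.02 FPKM in H460 controls and 42.8, 35.4 and 35.9 after ISP-I (log2 fold change -0.74, SE 0.14, limma adjusted p 0.00129), and in A549 38.02, 41.3 and 44.5 and 36.8, 36.7 and 36.7 (log2 fold change -0.16, SE 0.07, limma adjusted p 0.0879). The A549 groups of MCM2 did not overlap, and without control library 1 its fall was -0.22 with an adjusted p of 0.0413. CDC45, which ties the ring to GINS, fell by 0.63 in H460 and 0.84 in A549 on the log2 scale.

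The GINS complex split. GINS1 (chromosome 20, 25407673 to 25452628) had 28.4, 30.6 and 27.9 FPKM in H460 controls and 5.82, 4.96 and 5.42 after ISP-I (log2 fold change -2.23, SE 0.11, limma adjusted p 1.03e-06). A549 libraries gave 28.2, 26.1 and 29.99 and then 10.1, 11.2 and 10.8 (log2 fold change -1.31, SE 0.08, limma adjusted p 4.65e-06). GINS2 (-2.06 in H460 and -1.25 in A549) and GINS4 (-1.09 in H460 and -1.0015 in A549) fell as well. GINS3, also called PSF3 and an obligate partner of the other subunits, rose in H460 from 8.22, 8.06 and 7.83 FPKM in controls to 23.2, 20.7 and 22.01 after ISP-I (log2 fold change 1.34, SE 0.10, limma adjusted p 8.51e-06). In A549 the FPKM was 4.51, 3.98 and 4.03 in controls and 4.52, 5.12 and 5.16 after ISP-I, every treated library slightly above the controls, but it did not pass (log2 fold change 0.20, SE 0.08, limma adjusted p 0.0762). GINS3 is listed at chromosome 16, 58295080 to 58406147, a span that begins well before the RefSeq start whose promoter is printed above, and its exons share no base with another listed gene.

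**Figure D2:**
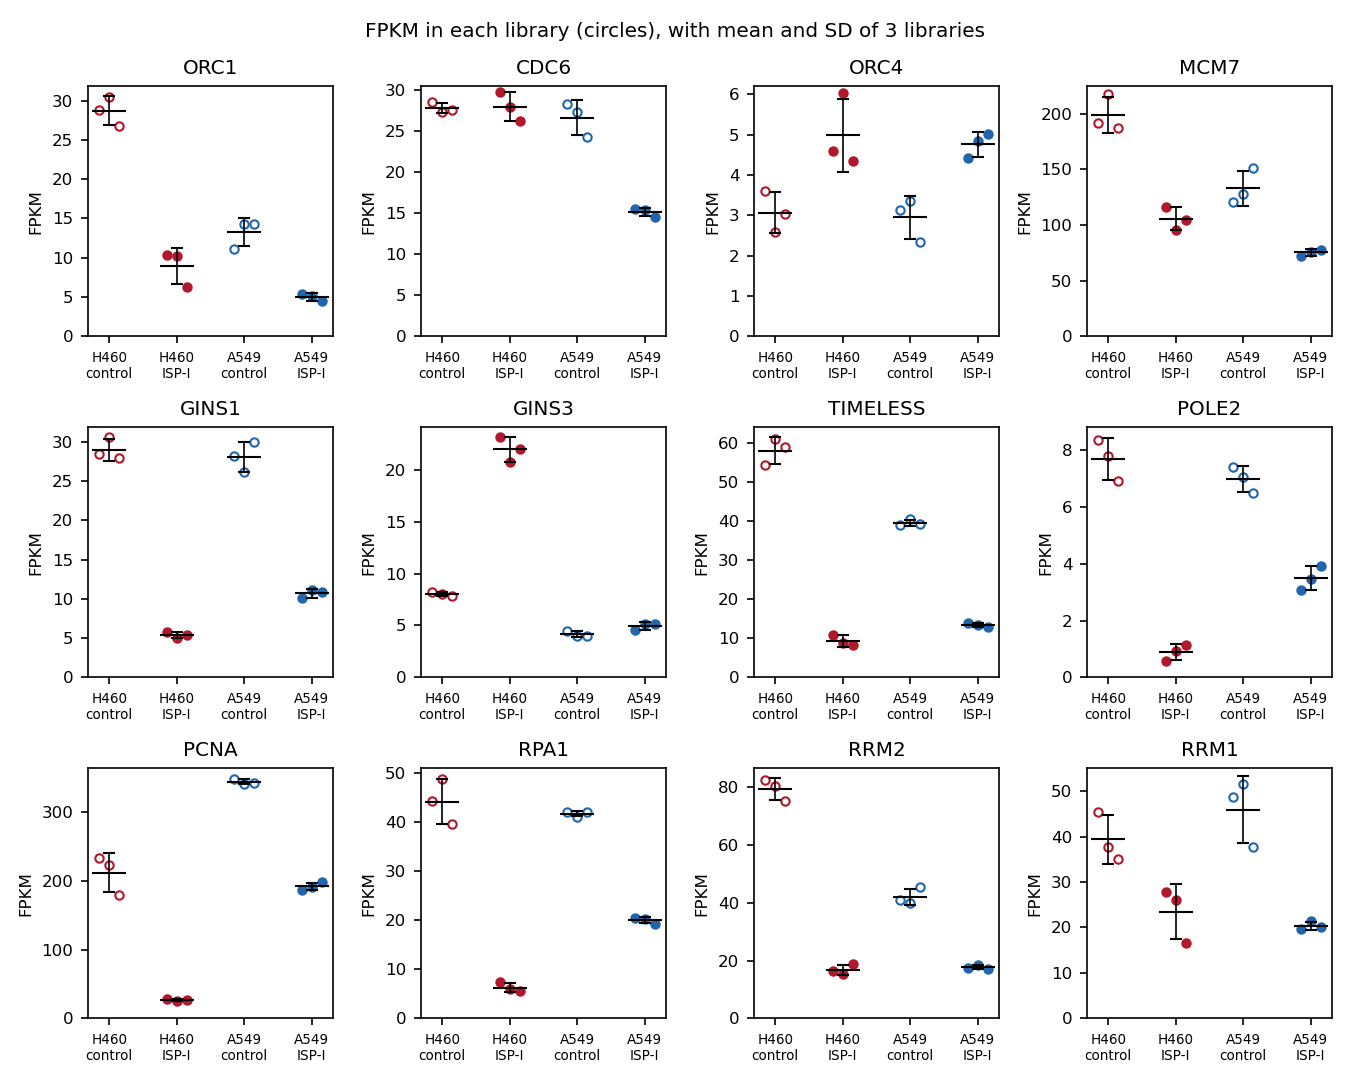
FPKM of 12 replication genes in each library (circles) with the mean and SD of 3 libraries, for H460 (red) and A549 (blue), controls open and ISP-I filled. PCNA in H460 drops from between 179.6 and 234 FPKM to between 25.7 and 27.4, while CDC6 in H460 stays between 26.2 and 29.7 and GINS3 reaches 20.7 to 23.2.

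The 4 genes of origin firing gave a median of -1.11 in H460 and -0.67 in A549, with 3 of 4 falling in each. MCM10 (chromosome 10, 13161558 to 13211110), which helps to separate and start the helicase, had 16.3, 16.5 and 17.98 FPKM in H460 controls and 5.94, 5.16 and 4.002 after ISP-I (log2 fold change -1.58, SE 0.14, limma adjusted p 1.82e-05). The values in A549 were 21.03, 22.3 and 15.3 and 11.5, 12.1 and 11.7 (log2 fold change -0.67, SE 0.13, limma adjusted p 0.00233). TICRR (chromosome 15, 89575469 to 89631056), also called Treslin, fell in each line, with a difference between them that did not pass (-0.27, adjusted p 0.0951). It had 5.24, 6.07 and 5.26 and then 2.07, 2.16 and 1.74 FPKM in H460 (log2 fold change -1.13, SE 0.12, limma adjusted p 4.22e-05), and 8.35, 8.52 and 8.54 and then 3.99, 4.04 and 4.66 in A549 (log2 fold change -0.86, SE 0.08, limma adjusted p 4.69e-05). The kinase CDC7 fell (-1.09 and -0.66), whereas its activator DBF4 passed in neither line (0.18 in H460 and -0.25 in A549) and its groups overlapped. Without A549 control library 3, DBF4 fell in A549 (-0.46, adjusted p 0.000247).

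Fork protection held the member with the largest fall in A549. TIMELESS (chromosome 12, 56416363 to 56449426), which stabilises stalled forks together with TIPIN, had 54.4, 61.03 and 58.98 FPKM in H460 controls and 10.9, 8.87 and 8.17 after ISP-I (log2 fold change -2.53, SE 0.13, limma adjusted p 1.27e-06). In A549 it had 39.01, 40.6 and 39.4 and then 13.9, 13.5 and 12.98 (log2 fold change -1.49, SE 0.06, limma adjusted p 1.05e-06). The libraries of each group lay close together and far from the other group. Its partner TIPIN fell little in H460 (-0.46, adjusted p 0.00828) and did not pass in A549 (0.10). CLSPN, the checkpoint mediator claspin, fell by 1.80 in H460 and 0.88 in A549 on the log2 scale. WDHD1, which links polymerase alpha to the helicase, did not pass in H460 (-0.16), and its A549 fall (-0.55, adjusted p 0.049) came from overlapping groups. It was lost on leaving out control library 1 (adjusted p 0.157), control library 2 (0.138) or any ISP-I library (0.098 to 0.129). The overlap came from control library 3, with 5.81 FPKM against 11.1 and 10.9 in the other controls and 5.57 to 6.15 after ISP-I. Among the alternatives its A549 log2 fold change reached -0.82.

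All 9 polymerase and primase genes fell in H460 (median -1.34) and 8 fell in A549 (median -0.68). With median-of-ratios scaling 8 of 9 fell in H460 (median -1.16), POLA1 being lost (limma adjusted p 0.154). POLE2 (chromosome 14, 49643555 to 49688422), the second subunit of the leading strand polymerase epsilon, had 8.37, 7.80 and 6.90 FPKM in H460 controls and 0.587, 0.935 and 1.14 after ISP-I (log2 fold change -2.21, SE 0.14, limma adjusted p 3.16e-06), a mean ratio of 0.115 that was the lowest of all members. A549 libraries gave 7.42, 7.07 and 6.49 and then 3.08, 3.47 and 3.94 (log2 fold change -0.83, SE 0.09, limma adjusted p 0.000152). POLE, the catalytic subunit, fell by 1.76 and 0.86 on the log2 scale. POLD1 (chromosome 19, 50384204 to 50418018), the catalytic subunit of polymerase delta, had 31.3, 36.8 and 37.7 in H460 controls and 8.39, 6.86 and 8.52 after ISP-I (log2 fold change -2.02, SE 0.13, limma adjusted p 3.27e-06). In A549 the FPKM was 34.5, 35.4 and 42.5 and 17.8, 17.998 and 17.3 (log2 fold change -1.04, SE 0.09, limma adjusted p 3.05e-05). The accessory subunit POLD2 fell by 0.74 in H460 and did not pass in A549 (-0.03), and POLD3 fell by 1.17 and 0.41.

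PRIM1 (chromosome 12, 56731296 to 56752374), the catalytic primase that lays down RNA primers, had 7.40, 7.17 and 7.76 FPKM in H460 controls and 1.43, 1.35 and 1.61 after ISP-I (log2 fold change -1.78, SE 0.11, limma adjusted p 2.28e-06). The values in A549 were 5.44, 5.58 and 5.69 and 3.89, 3.17 and 4.20 (log2 fold change -0.47, SE 0.10, limma adjusted p 0.00343). Of its exon bases, 19.1% lie in other listed genes, and the strand setting of the counting is not given. PRIM2 fell by 1.34 and 0.68. The polymerase alpha subunits POLA1 (-0.57 and -0.71) and POLA2 (-0.53 and -0.47) fell in each line, with no difference between the lines that passed (adjusted p 0.654 and 0.701). POLA2 had only 24 to 106 reads per library, and the log2(FPKM + 1) scale understates such low genes. Among the alternatives its log2 fold change reached -1.58 in H460 and -1.14 in A549. Of its exon bases, 16.8% lie in another listed gene. The H460 fall of POLA1 was lost without control library 1 (adjusted p 0.0897) or 3 (0.0955).

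On the log2(FPKM + 1) scale PCNA had the largest fall of all members in H460, whereas by the ratio of mean FPKM POLE2 did (0.115 against 0.126 for PCNA), as it did with a pseudocount of 0.1. PCNA (chromosome 20, 5114953 to 5126626), the ring that tethers the polymerases, had 234, 223 and 179.6 FPKM in H460 controls and 27.4, 25.7 and 26.8 after ISP-I (log2 fold change -2.94, SE 0.14, limma adjusted p 8.2e-07). In A549 it had 348, 341 and 342 and then 187, 192 and 198 (log2 fold change -0.84, SE 0.07, limma adjusted p 2.41e-05). Every H460 control library was far above every treated one, and the treated A549 libraries lay within the range of the H460 controls. Of the 5 genes of the clamp loader RFC, 4 fell in H460 and 3 in A549. RFC4 (chromosome 3, 186789880 to 186807058) had 15.5, 13.5 and 14.1 in H460 controls and 3.36, 4.69 and 4.56 after ISP-I (log2 fold change -1.57, SE 0.14, limma adjusted p 1.58e-05). A549 libraries gave 15.6, 12.98 and 11.4 and 9.32, 11.2 and 9.77 (log2 fold change -0.36, SE 0.12, limma adjusted p 0.0296), a fall that was lost without control library 1 (adjusted p 0.0873), control library 2 (0.0541), ISP-I library 1 (0.109) or ISP-I library 3 (0.0945). RFC5 fell by 1.21 and 0.56 and RFC2 by 0.72 in H460, while RFC2 did not pass in A549. RFC3 fell by 0.57 in H460 and by 0.33 in A549, where the adjusted p was 0.0614 to 0.091 on leaving out any library other than control library 3. RFC1, the largest loader subunit, passed in neither line, though without A549 control library 3 it fell there (-0.26, adjusted p 0.00608).

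All 3 RPA genes, whose product coats single-stranded DNA, fell in each line (median -1.18 in H460 and -0.73 in A549). With median-of-ratios scaling 2 of 3 fell in H460 (median -0.96), RPA2 being lost (limma adjusted p 0.131). RPA1 (chromosome 17, 1829702 to 1900082), the large DNA-binding subunit, had 44.2, 48.8 and 39.5 FPKM in H460 controls and 7.33, 5.87 and 5.60 after ISP-I (log2 fold change -2.64, SE 0.14, limma adjusted p 1.23e-06). In A549 the FPKM was 41.9, 41.03 and 42.04 and then 20.5, 20.1 and 19.2 (log2 fold change -1.02, SE 0.06, limma adjusted p 5.23e-06). RPA2 fell by 0.55 and 0.31 and RPA3 by 1.18 and 0.73.

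For flap removal and ligation the medians were -0.57 in H460, or -0.29 with median-of-ratios scaling and only LIG1 still passing, and -0.76 in A549. LIG1 (chromosome 19, 48115445 to 48170603), the ligase that seals Okazaki fragments, had 15.7, 18.2 and 19.7 FPKM in H460 controls and 4.03, 3.32 and 3.82 after ISP-I (log2 fold change -1.996, SE 0.13, limma adjusted p 3.1e-06). The values in A549 were 19.9, 20.6 and 20.8 and 6.98, 7.42 and 7.05 (log2 fold change -1.39, SE 0.06, limma adjusted p 1.67e-06). FEN1, the flap endonuclease, fell by 0.57 and 0.76. RNASEH2A had 0 to 9 reads per library and shares 53.3% of its exon bases with THSD8, so its fall in H460 (-0.22, adjusted p 0.0393, lost without control library 2 or without ISP-I library 1 or 2, adjusted p 0.0983 to 0.122) rests on very few reads.

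All 5 genes of nucleotide supply fell in each line, with medians of -1.36 in H460 and -1.20 in A549. With median-of-ratios scaling 4 of 5 fell in H460 (median -1.08), RRM1 being lost (adjusted p 0.0614). RRM2 (chromosome 2, 10120698 to 10211725), the S-phase subunit of ribonucleotide reductase, had 82.6, 80.3 and 75.1 FPKM in H460 controls and 16.5, 15.3 and 18.7 after ISP-I (log2 fold change -2.18, SE 0.12, limma adjusted p 1.63e-06). In A549 it had 40.8, 39.8 and 45.3 and 17.5, 18.5 and 17.1 (log2 fold change -1.20, SE 0.07, limma adjusted p 6.25e-06). The treated libraries of the lines overlapped in level, whereas the H460 controls were all above the A549 controls. DUT (chromosome 15, 48331011 to 48343373), the dUTPase that keeps uracil out of DNA, had 26.4, 25.3 and 25.2 and then 3.78, 3.06 and 6.53 in H460 (log2 fold change -2.34, SE 0.21, limma adjusted p 1.95e-05). A549 libraries gave 22.98, 19.7 and 24.2 and then 8.69, 10.1 and 7.97 (log2 fold change -1.23, SE 0.11, limma adjusted p 3.34e-05).

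TK1 (chromosome 17, 78174091 to 78187233), the cytosolic thymidine kinase, fell in each line. It had 91.9, 109 and 96.4 FPKM in H460 controls and 37.2, 34.8 and 42.2 after ISP-I (log2 fold change -1.36, SE 0.13, limma adjusted p 2.83e-05), and in A549 142, 145 and 188 and 53.5, 58.8 and 58.3 (log2 fold change -1.45, SE 0.11, limma adjusted p 2.04e-05). TYMS (chromosome 18, 657653 to 673578), thymidylate synthase, had 7.92, 5.19 and 10.4 in H460 controls and 2.66, 2.33 and 2.64 after ISP-I (log2 fold change -1.28, SE 0.21, limma adjusted p 0.000614). In A549 the FPKM was 6.39, 5.79 and 5.90 and 4.95, 3.87 and 3.80 (log2 fold change -0.44, SE 0.10, limma adjusted p 0.00639). TYMS shares 39.9% of its exon bases with its neighbour ENOSF1, so its count may be affected by that overlap. How reads in shared bases were counted is not given. RRM1, the large reductase subunit, fell by 0.75 in H460 and by 1.12 in A549, a difference between the lines that did not pass (0.38, adjusted p 0.225).

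Across the lines, 39 members fell in both, where 41.5% of all genes tested fell in H460 and 27% in A549. Of these 39, CDC45, POLA1, RFC3, RPA2, FEN1 and RRM1 no longer passed in H460 with median-of-ratios scaling. CDT1, MCM2, TIPIN, POLD2, RFC2 and RNASEH2A passed in H460 and not in A549, CDC6 and WDHD1 in A549 and not in H460, and ORC3, ORC5, DBF4 and RFC1 in neither. The difference between the lines did not pass for RNASEH2A (adjusted p 0.21) or WDHD1 (0.391). For CDT1, MCM2, TIPIN, POLD2 and RFC2 it passed as deposited but not with median-of-ratios scaling (adjusted p 0.0866 to 0.301), while for CDC6 it passed with either. No member passed in opposite directions. A fall of more than 2-fold in the 2 lines was shared by 11 members, ORC1, GINS1, GINS2, GINS4, TIMELESS, POLD1, RPA1, LIG1, RRM2, TK1 and DUT. Of all genes tested, 15.2% fell this far in H460 and 3.51% in A549. Shares of all genes for both lines together were not computed. The members' log2 fold changes in the lines had a Pearson r of 0.75 and a Spearman rho of 0.76 over the 54 genes, against 0.67 and 0.64 over 12708 genes tested in each line. These are descriptions, since the genes share the libraries.

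**Figure D3:**
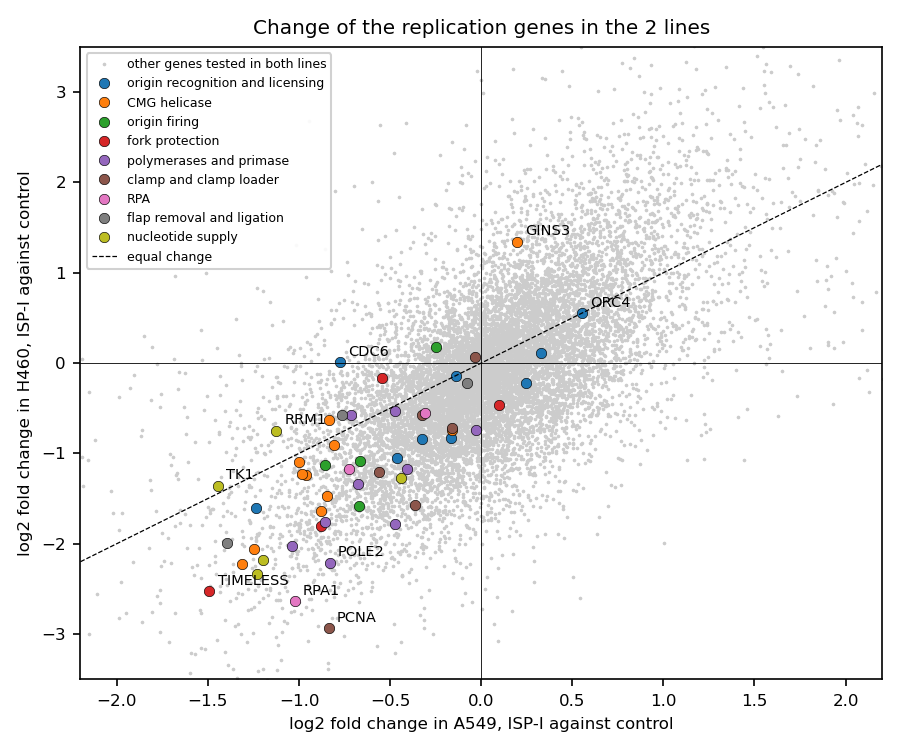
Log2 fold change after ISP-I in A549 (x axis) and H460 (y axis) for the 54 replication genes, coloured by role, over the other genes tested (grey; those beyond the axes are not drawn). Of the members, 43 lie below the dashed line of equal change, PCNA and RPA1 furthest, and GINS3 and CDC6 lie above it.

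Whether the change differed between the lines was tested as the interaction of line and treatment over all 12 libraries. The difference, H460 change minus A549 change, was negative for 29 members (34.7% of all genes) and positive for 2 (18.6%), with a median of -0.54 against -0.16 for all genes. Under median-of-ratios scaling these counts were 17 and 6, with a median of -0.26 against 0.02 for all genes. The size of the gap between the lines thus depends on the scaling. Shares of all genes passing under that scaling are not given. As deposited, a difference of more than 2-fold was negative for 7 members (10.1%) and positive for 1 (5.93%). PCNA differed most (-2.10, SE 0.14, adjusted p 3.46e-07), followed by RPA1 (-1.61), POLE2 (-1.38), PRIM1 (-1.31), RFC4 (-1.21), DUT (-1.11) and TIMELESS (-1.03). Of these, PCNA (-1.79), RPA1 (-1.33), POLE2 (-1.21) and PRIM1 (-1.10) kept a difference of more than 2-fold under median-of-ratios scaling. GINS3 differed the other way (1.15, adjusted p 5.48e-06), and so did CDC6 (0.78, adjusted p 0.000125). By role, 7 of 9 polymerase and primase genes fell further in H460. Of the 11 helicase genes 5 did, not far from the 34.7% of all genes. With median-of-ratios scaling POLD2 (limma adjusted p 0.0866), MCM2 (0.188) and MCM4 (0.0716) no longer passed. No difference passed for TK1 (0.09, adjusted p 0.679), MCM7 (-0.10, 0.613) or ORC1 (-0.37, 0.183).

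Before treatment, 28 of the 54 genes had no difference between the lines that passed. Of the others, 18 were higher in H460 controls than in A549 controls (28.6% of all genes) and 8 were lower (31.6%), with a median difference of 0.08. Without A549 control library 3 the number lower in H460 was 14. ORC1 (1.07), RRM2 (0.90) and GINS3 (0.81) were the largest differences towards H460, and 7 of the 11 helicase genes were higher there. PCNA (-0.70), POLD3 (-0.69) and TK1 (-0.66) were the largest towards A549.

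Shares within a complex and ratios between partners do not depend on the scaling of a library, and are given as descriptions with no test. GINS3 made up 12.9% ± 0.559 of the summed GINS FPKM in H460 controls and 64.7% ± 0.561 after ISP-I (mean ± SD, n = 3). In A549 its share was 6.40% ± 0.653 and 16.8% ± 0.914, and the libraries did not overlap in either line. RPA1 went from 44.8% ± 2.24 to 15.7% ± 3.43 of the RPA sum in H460 and from 49.4% ± 2.24 to 38.5% ± 1.49 in A549. POLD1 went from 27.0% ± 0.310 to 12.6% ± 0.486 of the polymerase delta sum in H460 and from 32.4% ± 0.776 to 19.4% ± 0.510 in A549. ORC1 went from 40.1% ± 1.83 to 17.8% ± 3.77 of the ORC sum in H460 and from 25.2% ± 3.67 to 10.2% ± 1.01 in A549. Within the ring, MCM2 went from 12.4% ± 1.06 to 16.02% ± 0.427 of it in H460 and from 11.5% ± 0.412 to 17.6% ± 0.155 in A549.

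**Figure D4:**
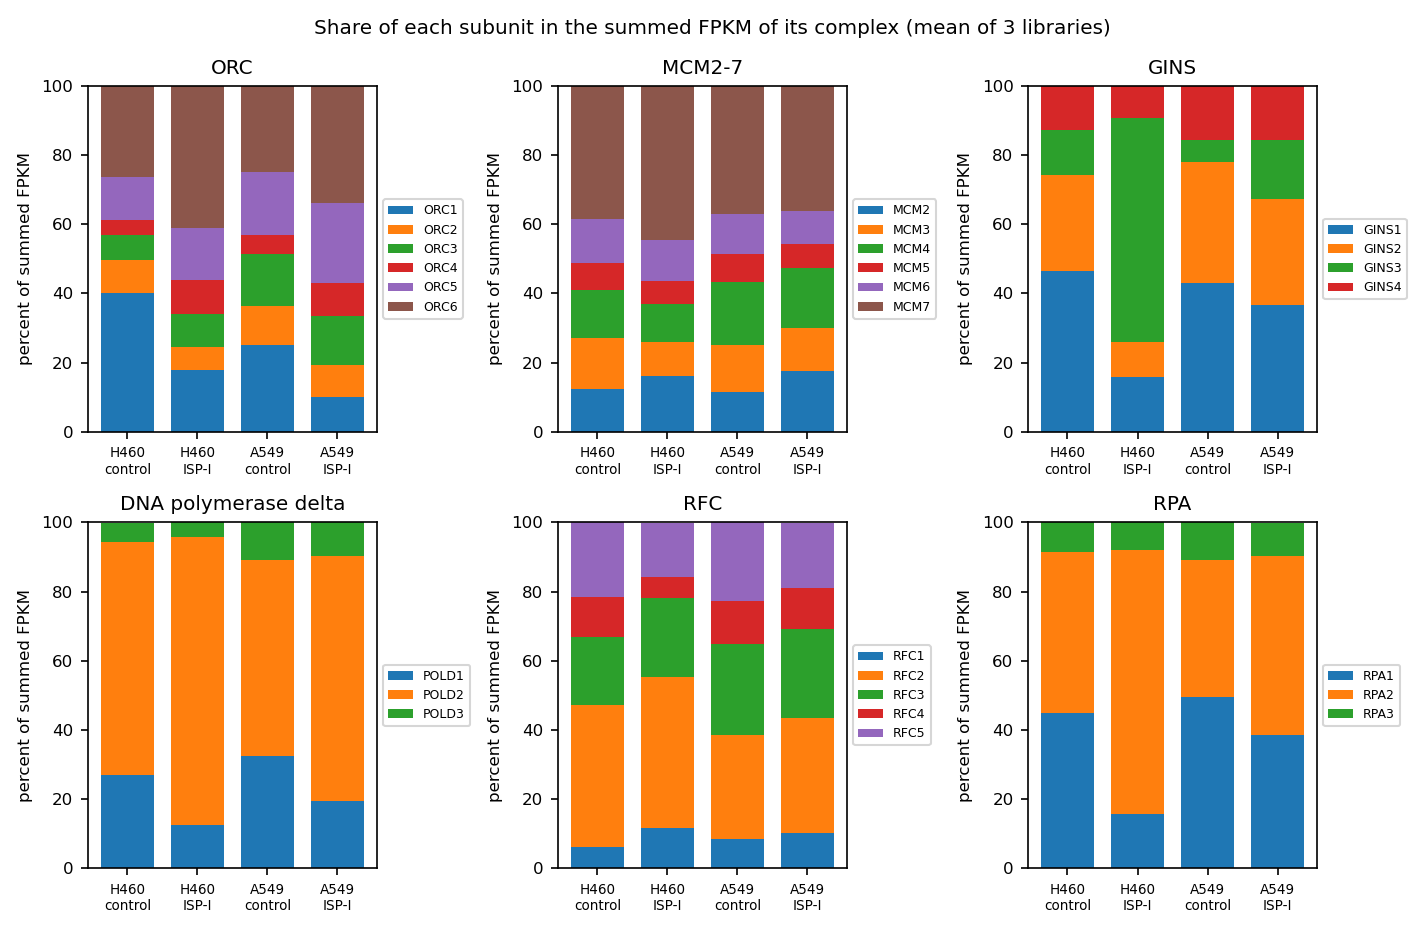
Share of each subunit in the summed FPKM of 6 complexes (stacked bars, percent, mean of 3 libraries) in the 4 groups. GINS3 grows from 12.9% to 64.7% of the GINS sum in H460, while ORC1, POLD1 and RPA1 lose share in each line.

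The partners of some pairs moved unequally. The ratio of TIMELESS to TIPIN was 4.53 to 6.22 in H460 controls and 1.02 to 1.37 after ISP-I, and 2.39 to 2.69 and then 0.735 to 0.866 in A549. The ratio of DBF4 to CDC7 was 0.713 to 0.761 in H460 controls and 1.79 to 2.37 after ISP-I, and 1.48 to 1.69 and then 2.11 to 2.70 in A549. In each case no treated library overlapped the controls. RRM2 to RRM1 went in H460 from 1.82 to 2.14 in controls to 0.586 to 1.13, whereas in A549 controls (0.774 to 1.21) and treated libraries (0.849 to 0.892) overlapped. The licensing factor CDT1 relative to its inhibitor GMNN overlapped between the groups in each line. It was 1.78 to 2.47 in H460 controls and 2.10 to 3.09 after ISP-I, against 1.12 to 1.71 and 1.43 to 1.94 for A549. CDC6 relative to ORC1 went from 0.896 to 1.03 in H460 controls to 2.73 to 4.17, and from 1.71 to 2.54 in A549 controls to 2.84 to 3.26.

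Genes that work beside these 54 were read from 3 further lists. They are to be set beside all genes, of which 41.5% fell and 27.6% rose in H460, and 27% fell and 30.5% rose in A549. Of 23 other replication factors, 14 fell and 4 rose in H460, and 11 fell and 1 rose in A549. With median-of-ratios scaling 10 fell and 4 rose in H460, the median being -0.16 there and -0.435 as deposited. DTL rose in H460 (0.64, limma adjusted p 0.00981) and fell in A549 (-0.29, 0.0116). Of 8 genes of chromatin assembly at the fork, 7 fell in each line (median -1.37 in H460 and -0.88 in A549). Of 14 other genes of nucleotide metabolism, 11 fell in H460, and 7 fell and 3 rose in A549. IMPDH2 fell in H460 (-0.36) and rose in A549 (0.43), but its H460 fall was lost with median-of-ratios scaling (limma adjusted p 0.609). UHRF1, which brings the maintenance methyltransferase to new DNA, fell by 2.41 and 1.06 on the log2 scale. Of the subunits of an alternative clamp loader, DSCC1 (-2.37 and -0.68) and CHTF18 (-2.27 and -0.83) fell. CHTF8 passed in neither line (-0.09, limma adjusted p 0.207, and -0.13, limma adjusted p 0.0674), but had only 5 to 13 reads per library. It shares 84.6% of its exon bases with HAS3 and DERPC, so it cannot be compared with the other subunits. The histone chaperone ASF1B had -2.07 and -1.41.

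TOP2A, topoisomerase II alpha, had 56.4, 32.3 and 44.3 FPKM in H460 controls and 8.43, 15.1 and 4.46 after ISP-I (log2 fold change -2.24, SE 0.36, limma adjusted p 0.00063). The values in A549 were 154, 157 and 68.9 and 36.8, 42.1 and 39.5 (log2 fold change -1.56, SE 0.28, limma adjusted p 0.00177), control library 3 being far below the other two. TOP1, which relaxes the helix ahead of the fork, rose in H460 (1.33) and did not pass in A549 (0.07), and the small polymerase delta subunit POLD4 likewise rose in H460 (1.23) and did not pass in A549 (0.07). RRM2B, the p53-inducible reductase subunit used outside S phase, had 4.47, 2.89 and 3.78 in H460 controls and 4.94, 6.88 and 4.16 after ISP-I, with overlap (log2 fold change 0.41, SE 0.19, limma adjusted p 0.0771). In A549 it had 13.7, 15.4 and 7.29 and then 24.6, 25.2 and 26.4 (log2 fold change 1.07, SE 0.22, limma adjusted p 0.00399). Relative to RRM2 it went from 0.036 to 0.0541 in H460 controls to 0.223 to 0.451, and from 0.161 to 0.387 in A549 controls to 1.36 to 1.55. SAMHD1, which degrades dNTPs, had 4.47, 4.17 and 4.62 in H460 controls and 0.328, 0.369 and 0.288 after ISP-I (log2 fold change -2.03, SE 0.09, limma adjusted p 7.74e-07). A549 libraries gave 3.71, 3.40 and 3.19 and 0.916, 0.771 and 0.714 (log2 fold change -1.30, SE 0.08, limma adjusted p 7.89e-06).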

How the data were processed

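RNA was sequenced from 12 libraries, 3 in each of 4 groups set by the labels. Per the labels and the study's methods, the authors checked reads with FastQC, aligned them to hg38 with HISAT2 and counted genes with HTSeq 0.9.1. They deposited FPKM for 19973 genes, scaled to library totals. The annotation release and strand setting are not given in the sources used here. FPKM times length gave whole reads (within 0.01) for all values, and depth was taken from these. Columns map to groups but not to numbered samples.

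limma 3.58.1 (R 4.3.3) was fitted to log2(FPKM + 1) over every gene whose mean reached 0.1 FPKM, per line, for the interaction over 12 libraries and between control groups, with two-sided Benjamini-Hochberg adjusted p. Passed means an adjusted p under 0.05, and the larger calls also need a 2-fold change. The steps were tested on simulated data. Fold changes are on the log2(FPKM + 1) scale. Alternatives were another pseudocount, filters, median-of-ratios scaling, limma voom on recovered reads, a 12-library fit and leaving out each library. Per-library values are given for the largest fall and rise in each role and line, for members with a 2-fold difference between the lines and for the best-known genes. Members and lists were chosen with earlier results of these data known. Promoters are from RefSeq. Figures were drawn with matplotlib 3.10.9.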

Additional observations from a re-analysis of the deposited data

Results flagged for a closer look

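The interaction test over 12 libraries (limma) gave 8 of the 54 genes a response to ISP-I that was more than 2-fold apart in the lines. Of all genes tested, 10.1% had a negative and 5.93% a positive difference of that size, so the members' share was near that of all genes. The log2 difference, H460 change minus A549 change, was -2.101 for PCNA, -1.613 for RPA1, -1.379 for POLE2, -1.307 for PRIM1, -1.208 for RFC4, -1.106 for DUT and -1.033 for TIMELESS, all of which fell in each line and further in H460. It was 1.148 for GINS3, which rose in H460 and did not pass in A549. With median-of-ratios scaling PCNA, RPA1, POLE2, PRIM1 and GINS3 kept a difference of more than 2-fold.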

How the results depend on the processing

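No paired analysis was possible because the columns are numbered 1 to 6 over both treatments of a line and do not carry the replicate numbers of the labels. Of 716 recomputed values for 22 genes, 704 kept their direction and their side of the threshold. CDC6 in H460, which did not pass, turned to -0.0037 without control library 2 and -0.036 without ISP-I library 1, and leaving out 1 library gave -0.036 to 0.052. RFC4 in A549 had an adjusted p of 0.102 without a filter, and TYMS in A549 one of 0.0527 in the 12-library fit (limma).

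The H460 rises numbered 4 in voom with median-of-ratios factors. The difference between the lines was negative for 17 and positive for 6 genes with median-of-ratios scaling, and for 18 and 6 in voom with those factors. Negative differences over 2-fold numbered 13 with a pseudocount of 0.1, 4 with median-of-ratios scaling and 15 in voom with library totals. Positive ones numbered 2 with either use of median-of-ratios factors. Shares of all genes tested under these alternatives are not given, so these counts are not set against them. The median in H460 was -1.28 with a pseudocount of 0.1, -1.15 from 1 FPKM up, -0.90 with median-of-ratios scaling, and -1.01 and -1.29 in voom with those factors and with totals. In A549 these were -0.81, -0.72, -0.73, -0.85 and -0.82. Leaving out 1 library gave medians of -1.15 to -1.06 in H460 and -0.77 to -0.66 in A549, and 6 to 14 genes lower in H460 controls than in A549 controls, 14 being without A549 control library 3. The cause of these shifts was not tested. No gene that passed reversed under any alternative, and 39 of 47 in H460, 37 of 43 in A549 and 19 of 31 for the difference passed under all of them. RNASEH2A had 0 to 9 reads a library and shares 53.3% of its exon bases with THSD8. Why its count was so low was not tested.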
